A study of Mus musculus with 44 samples.

Results

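The response of LPS-activated CH12.LX cells to 2,3,7,8-tetrachlorodibenzo-p-dioxin (TCDD) was examined 24 h after treatment. CH12.LX, an established line from a mouse B cell lymphoma, moves towards antibody secretion when given lipopolysaccharide (LPS), a component of the bacterial outer membrane that B cells sense. All cells of this comparison received LPS (Salmonella typhosa), and either 10 nM TCDD or dimethyl sulfoxide (DMSO) at 0.01%, the vehicle. It comprised 8 of the series' 44 arrays, 4 TCDD and 4 vehicle arrays at 24 h, taken by treatment and time from the sample labels. Each replicate was treated and harvested on a day of its own, so a TCDD and a vehicle array of the same number form a day pair. The cultures were of 1 cell line at 1 dose, and cells without LPS or without vehicle were not measured at 24 h. P-values therefore measure the spread between cultures of 1 line on separate days.

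TCDD is a long-lived ligand of the aryl hydrocarbon receptor (AhR), a transcription factor held in the cytoplasm by heat shock proteins until a ligand binds. The receptor then enters the nucleus, pairs with ARNT and binds DNA at a short core motif, switching on genes of xenobiotic metabolism such as Cyp1a1 and its own repressor, Ahrr. In activated B cells, the B cell factors Pax5 and Bach2 hold back the plasma cell factor Prdm1 (Blimp-1), and TCDD is known for impairing the passage from B cell to antibody-secreting cell. Interferons act through JAK kinases and STAT factors, and switch on antiviral genes whose promoters often hold a different motif, the interferon-stimulated response element.

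The promoters of 4 AhR target genes called higher are shown first, since they hold the receptor's core motif, GCGTG on either strand (CACGC when read from the other strand). Each is the 250 bases before the transcription start, from RefSeq on build GRCm38.p6, written in the direction of the gene: Cyp1a1 at chr9:57697363-57697612 (plus strand), Cyp1b1 at chr17:79715062-79715311 (minus strand), Ahrr at chr13:74292332-74292581 (minus strand) and Tiparp at chr3:65528197-65528446 (plus strand). Capitals mark the motif.
Cyp1a1: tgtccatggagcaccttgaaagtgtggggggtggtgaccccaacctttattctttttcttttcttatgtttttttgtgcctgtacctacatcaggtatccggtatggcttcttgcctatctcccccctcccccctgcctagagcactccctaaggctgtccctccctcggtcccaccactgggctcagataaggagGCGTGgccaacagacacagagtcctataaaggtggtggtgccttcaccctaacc
Cyp1b1: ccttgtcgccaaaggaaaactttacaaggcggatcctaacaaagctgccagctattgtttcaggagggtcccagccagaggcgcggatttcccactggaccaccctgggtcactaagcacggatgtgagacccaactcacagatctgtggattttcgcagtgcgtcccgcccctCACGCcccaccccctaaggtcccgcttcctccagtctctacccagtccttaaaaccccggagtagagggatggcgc
Ahrr: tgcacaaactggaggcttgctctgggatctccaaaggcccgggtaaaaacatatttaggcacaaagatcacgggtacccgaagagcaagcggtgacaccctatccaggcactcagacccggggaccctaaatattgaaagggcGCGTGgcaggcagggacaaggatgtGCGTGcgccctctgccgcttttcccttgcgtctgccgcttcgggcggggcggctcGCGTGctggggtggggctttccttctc
Tiparp: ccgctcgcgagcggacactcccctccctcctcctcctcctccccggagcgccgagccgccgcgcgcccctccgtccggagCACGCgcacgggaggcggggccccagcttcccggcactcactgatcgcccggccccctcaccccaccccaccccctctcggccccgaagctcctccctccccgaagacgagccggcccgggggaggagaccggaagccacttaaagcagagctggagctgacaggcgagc

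The Ahrr window held 3 matches and the others 1 each. The promoters of Nqo1 and Cyp2s1 held no GCGTG. Among genes tested with a listed promoter, the motif stood in 203 of the 452 genes called higher (44.9%), in 156 of the 274 called lower (56.9%) and in 4735 of all 9717 (48.7%). Of the 148 genes called higher by more than 1 on the log2 scale, 50 held it (33.8%). Among the interferon response genes described below, 6 of the 16 with a listed promoter held it (37.5%). Over all 32851 promoters in the table it occurred in 28.2%.

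The second set of promoters belongs to 3 interferon-inducible genes among the 15 largest rises, Ifit3 at chr19:34583279-34583528 (plus strand), Ifit1 at chr19:34640639-34640888 (plus strand) and Oas3 at chr5:120777660-120777909 (minus strand). Capitals mark a core of the interferon-stimulated response element, GAAA followed after any 2 bases by a second GAAA, on either strand (TTTC and TTTC when read from the other strand). This motif was chosen after the results had been seen. The 3 genes are those with the largest changes among the interferon response genes whose listed promoter held it. Ifit2, also among the largest rises, held no match to it but did hold GCGTG.
Ifit3: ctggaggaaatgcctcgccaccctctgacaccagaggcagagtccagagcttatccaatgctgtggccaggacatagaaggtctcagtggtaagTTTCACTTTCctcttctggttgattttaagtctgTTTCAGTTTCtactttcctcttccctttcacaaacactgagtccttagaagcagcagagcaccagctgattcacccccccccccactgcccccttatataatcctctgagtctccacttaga
Ifit1: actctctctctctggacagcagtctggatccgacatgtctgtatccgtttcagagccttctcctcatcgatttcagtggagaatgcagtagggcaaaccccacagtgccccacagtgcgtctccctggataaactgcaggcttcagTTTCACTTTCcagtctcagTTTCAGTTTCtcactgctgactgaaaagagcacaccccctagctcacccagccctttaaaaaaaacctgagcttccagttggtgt
Oas3: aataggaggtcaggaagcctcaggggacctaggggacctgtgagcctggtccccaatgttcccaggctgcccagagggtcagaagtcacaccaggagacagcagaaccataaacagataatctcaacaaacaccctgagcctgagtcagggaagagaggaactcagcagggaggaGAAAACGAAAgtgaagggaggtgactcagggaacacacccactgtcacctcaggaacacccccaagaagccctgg

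Ifit3 and Ifit1 held 2 matches each, and Oas3 held 1. The motif stood in 49 of the 452 genes called higher (10.8%), in 28 of the 148 called higher by more than 1 (18.9%), in 7 of the 274 called lower (2.55%) and in 315 of all 9717 (3.24%). It occurred in 8 of the 16 interferon response genes with a listed promoter and in 0 of the 6 AhR targets, and in 2.98% of all promoters in the table. The promoters of Plet1, Slfn1 and Oasl2, also among the largest rises, held neither motif. These shares describe the windows and were not tested, and a match is not a measured binding site.

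All levels are log2(signal + 16), which makes changes of dim genes look smaller and cannot fall below 4. Changes are TCDD minus vehicle on that scale, with limma's standard error for 4 arrays per group. That error uses the spread within all 11 groups of 44 arrays, not the 24 h arrays alone, and leaves out the day pairing. A gene is called higher or lower where limma's Benjamini-Hochberg adjusted p is under 0.05. Levels belong to 1 probe set per gene and are not set against those of other genes.

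At 24 h, 907 of 11970 genes tested were called (7.58%), 575 higher (4.8%) and 332 lower (2.77%). The rises were larger than the falls. The median change was 0.77 among genes called higher and -0.41 among those called lower, and over all genes tested it was -0.02. Of the genes called, 197 rose and 22 fell by more than 1, and 58 rose and 1 (Cd37) fell by more than 2. In 905 of the 907 all 4 day pairs moved in the direction of the call. With the day as a replicate block 1625 genes were called (13.6%), 869 higher (7.26%) and 756 lower (6.32%), and these included all 907. The block counts of the lists below stand against these shares. At an unadjusted p under 0.05 limma gave 1118 genes higher and 1061 lower. With each array shifted to a common median in place of quantile normalization, 348 were called, 304 higher and 44 lower, a higher share of 87.4% against 63.4%. Leaving out a day from all groups gave 483 calls (without day 2) to 692 (without day 1), with 583 without day 3 and 598 without day 4.

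The number of arrays limits the precision. Median signals of the 24 h arrays were 48.4, 50, 57.1 and 67.5 for TCDD and 45.8, 47.8, 61.9 and 63.3 for vehicle, and replicate arrays of all groups correlated with r from 0.941 to 0.981. The B cell markers Blnk, Cd79b and Ms4a1 lay between 11.04 and 13.90 on every 24 h array, while Pax5 lay between 5.15 and 6.54, near the filter at 6.21. The T cell markers Cd3d, Cd247, Cd4 and Thy1 and the natural killer cell markers Ncr1, Eomes and Gzmb lay below the filter. Above it were the T cell markers Cd8a (8.43 to 8.96 over the 24 h arrays), Cd2 (8.72 to 9.41) and Zap70 (6.61 to 8.54). Cd3e and Cd3g passed the filter, which takes the highest mean of any group. On the 24 h arrays Cd3e ran from 5.12 to 7.04, and Cd3g from 5.22 to 6.14, below 6.21 on all of them. The summed linear signal of the macrophage and monocyte markers was 7800 to 9390 in TCDD arrays and 3390 to 4110 in vehicle arrays. Mpeg1 alone made the largest part of that marker sum (12.27 to 12.74 under TCDD and 11.05 to 11.44 in vehicle). Of the 6 tested, Csf1r, Mpeg1 (1.22) and Adgre1 (0.94) were called higher, Cd14, Cd68 and Ccr2 were not called, and Lyz2 and Itgam lay below the filter in all groups. The summed signal of the B cell markers was 25600 to 31300 under TCDD and 23600 to 26800 in vehicle, and that of the T cell markers 1260 to 1410 and 1170 to 1520 (0 of 5 tested called by limma). In such bulk samples fewer cells of a type and less RNA per cell cannot be told apart.

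**Figure D1:**
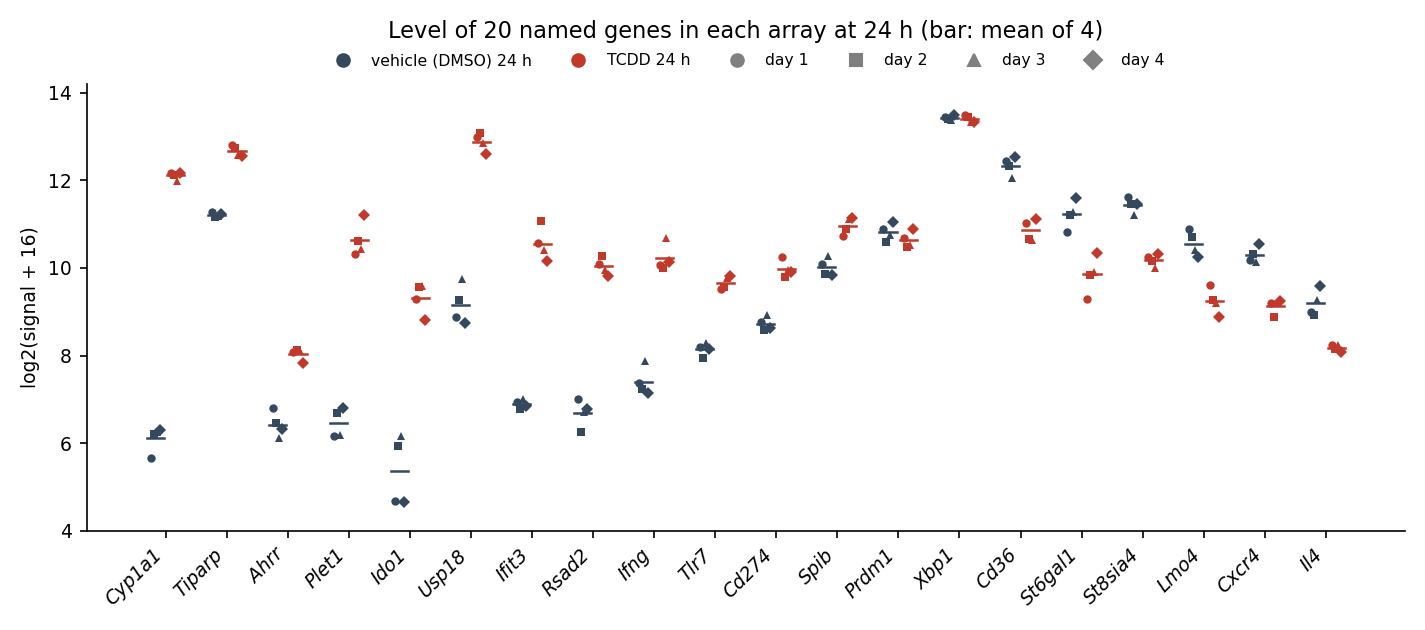
Level of 20 named genes in each 24 h array, as log2(signal + 16), with vehicle arrays in blue, TCDD arrays in red, a symbol per day and a bar at the mean of 4. The 4 TCDD and 4 vehicle arrays do not overlap for Cyp1a1 through Spib or for Cd36 through Il4, and they do overlap for Prdm1 and Xbp1.

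Most of the AhR target genes tested were higher. Of 11 listed, 9 were on the array and 6 passed the filter on dim genes. A gene could pass by its level under TCDD, so the share called among those tested is not independent of the rise. Of 6 tested, 5 were called higher and 0 lower, with a median change of 1.54 against -0.02 over all genes, and 4 to 5 were called higher in the alternatives run. Cyp1a1, a cytochrome P450 that oxidises aromatic hydrocarbons, read 12.17, 12.13, 11.98 and 12.18 in the TCDD arrays of days 1 to 4 and 5.67, 6.20, 6.25 and 6.31 in the vehicle arrays. Every TCDD array was far above every vehicle array, and the gene had the largest rise of all genes tested. The change was 6.01 ± 0.19, or 64.3-fold (adjusted p = 1.32e-23). Cyp1b1, a related P450, read 8.14, 8.02, 8.01 and 7.70 under TCDD and 6.11, 5.79, 5.09 and 5.45 in vehicle (2.35 ± 0.34, adjusted p = 4.89e-06). The groups lay apart on this probe set, but its other probe sets gave 1.83 and -0.56, and the mean over probe sets was 1.21.

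The feedback regulators of the receptor rose as well. Ahrr, the AhR repressor, read 8.09, 8.13, 8.10 and 7.83 under TCDD and 6.81, 6.45, 6.11 and 6.33 in vehicle (1.61 ± 0.20, adjusted p = 2.96e-07). Tiparp, an ADP-ribosyltransferase that limits AhR activity, read 12.80, 12.75, 12.59 and 12.56 under TCDD and 11.28, 11.17, 11.19 and 11.23 in vehicle (1.46 ± 0.10, adjusted p = 8.51e-13). Both lay apart on all arrays, Tiparp with the narrower spread. Its other probe sets gave 1.5 and 1.46.

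Of the remaining targets 1 was called. Nqo1, a quinone reductase, read 8.33, 8.37, 8.72 and 9.01 under TCDD and 7.37, 7.11, 8.00 and 8.20 in vehicle (0.94 ± 0.25, adjusted p = 0.0118). All TCDD arrays were above all vehicle arrays, with a gap narrower than the spread within either group, and the call was lost without day 2 (0.83) and day 3 (1.01), and without TCDD array 4 (0.81) or vehicle array 1 (0.84). Cyp2s1, another P450, changed by 0.49 ± 0.38 and was not called (adjusted p = 0.569). Cyp1a2, Aldh3a1 and Scin lay below the filter on dim genes.

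None of the 6 tested members of the AhR complex list was called in limma's test, and 1 was higher and 0 lower at an unadjusted p under 0.05. Over all 11970 genes tested, 1118 were higher and 1061 lower at that p. Ahr itself changed by -0.05 ± 0.16 (adjusted p = 0.918), its partners Arnt and Arnt2 by -0.07 ± 0.21 and -0.39 ± 0.40, and the chaperone Hsp90aa1 by 0.05 ± 0.08. The coactivators Ncoa1 and Ncoa2 changed by 0.39 ± 0.19 and 0.32 ± 0.17 (adjusted p = 0.253 and 0.333). With the day as a replicate block both were called higher (adjusted p = 0.0245 and 0.0106), as were 7.26% of all genes tested.

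Of the 15 largest rises 8 were on the interferon response list. All 22 tested members of the interferon response list were called higher, against 4.8% of all genes tested, with a median change of 2.20. In all 22 the 4 TCDD arrays lay above the 4 vehicle arrays, which 7.83% of all genes tested showed. A gene could pass the filter by its level under TCDD, so the share called is not independent of the rise. Mx2 passed that way, with vehicle means of 4.55 to 5.60 over the 5 times and 7.30 under TCDD at 24 h. The change was over 3 in 8 members and over 1 in 20. The count was 20 to 22 in the alternatives run. The list was chosen with earlier results of these data known, so its direction is not independent evidence.

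Oasl2, of the oligoadenylate synthetase family of antiviral RNA sensors, read 11.06, 11.41, 11.19 and 11.15 under TCDD and 6.39, 6.99, 7.52 and 6.62 in vehicle (4.32 ± 0.32, 20-fold, adjusted p = 2.47e-12). Its relative Oas3 read 9.18, 8.99, 9.39 and 9.14 against 5.32, 5.70, 6.4 and 5.76 (3.38 ± 0.37, adjusted p = 1.63e-08). Vehicle arrays varied more than TCDD arrays in both, and day 3 had the highest vehicle level. Oasl1 (2.16 ± 0.36), Oas2 (2.09 ± 0.28) and Oas1a (1.91 ± 0.19) rose less.

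Of the Ifit family, whose proteins bind viral RNA, Ifit3 read 10.57, 11.08, 10.41 and 10.15 under TCDD and 6.93, 6.79, 7.01 and 6.84 in vehicle (3.66 ± 0.26, adjusted p = 8.41e-13). Ifit1 read 10.78, 11.27, 11.16 and 10.91 under TCDD and 7.37, 7.37, 7.97 and 6.97 in vehicle (3.61 ± 0.32, adjusted p = 1.42e-10). Ifit2 read 10.34, 10.59, 10.05 and 10.22 under TCDD and 7.57, 7.23, 7.11 and 6.48 in vehicle (3.21 ± 0.22, adjusted p = 5.65e-13). The promoters of Ifit3 and Ifit1 are printed above. In all 3 genes the groups were separated by more than 2 log2 units.

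Rsad2 (viperin), an antiviral enzyme, read 10.08, 10.28, 9.96 and 9.82 under TCDD and 7.00, 6.25, 6.71 and 6.78 in vehicle (3.35 ± 0.29, adjusted p = 1.42e-10), and its other probe sets gave 3.08 and 3.37. Mx1, a GTPase that blocks influenza virus, read 10.51, 10.44, 10.11 and 9.98 under TCDD and 7.30, 7.27, 7.79 and 6.59 in vehicle (3.02 ± 0.30, adjusted p = 2.80e-09). Mx2 ranged from 6.51 to 7.94 under TCDD and from 4.46 to 4.70 in vehicle, close to the lowest possible value (2.75 ± 0.54). The RNA sensors Ifih1 (MDA5) and Ddx58 (RIG-I) changed by 2.20 ± 0.23 and 1.94 ± 0.20, the nucleic acid sensor Zbp1 by 1.53 ± 0.17, Rtp4 by 2.77 ± 0.49 and the guanylate-binding protein Gbp2 by 1.27 ± 0.18. Ifi35 rose by 0.81 ± 0.13, a call lost with a common median (0.73).

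The pattern held on each day. The median change of the 22 genes was 2.65 on day 1, 2.53 on day 2, 1.95 on day 3 and 2.10 on day 4, and all 22 were higher on every day. The smallest change of each day was that of Irf1, from 0.40 to 0.54. The median vehicle level of the 22 genes was highest on day 3 (9.12, against 8.35 to 8.61 on the other days), and the median TCDD level ran from 10.97 to 11.34.

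Genes that make and carry the interferon signal were read next, from 28 genes named after the values had been seen. Of the 21 tested, 11 were called higher and 0 lower, against 4.8% and 2.77% of all genes tested. Stat2, Irf1, Irf7 and Usp18 among the 11 are also on the interferon response list counted above. Among the interferons, Ifng (interferon gamma) read 10.07, 10.01, 10.69 and 10.14 under TCDD and 7.38, 7.23, 7.88 and 7.14 in vehicle (2.82 ± 0.32, 7.05-fold, adjusted p = 5.14e-08). The groups did not overlap, and day 3 was the highest day in both. Ifnb1 (interferon beta) read 6.92, 7.00, 6.84 and 7.38 under TCDD and 6.4, 5.88, 6.32 and 6.01 in vehicle (0.88 ± 0.24, adjusted p = 0.017). These levels were dim and the gap between the groups narrow, and the call was lost without day 1 (1.00) or day 4 (0.72), and without vehicle array 2 (0.79). Ifna1 was not called (-0.31 ± 0.43) and 6 other interferon alpha genes lay below the filter.

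Of the receptor chains only Ifnar2 was called (0.32 ± 0.10, adjusted p = 0.0468), and the call was lost without any of days 1 to 4 (0.35, 0.36, 0.27 and 0.31). Ifnar1, Ifngr1 and Ifngr2 changed by -0.02, 0.12 and 0.01. Among the signal transducers Jak2 rose by 0.80 ± 0.12, Stat2 by 1.45 ± 0.19 and Irf9, the DNA-binding partner of the STATs, by 0.66 ± 0.13. Jak1 was called only with the replicate block or without vehicle array 1 (0.31 and 0.43; adjusted p = 0.155 without the block), and Tyk2 was not called (-0.08).

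The interferon regulatory factors differed among themselves. Irf7, which amplifies the type I response, read 11.66, 12.21, 12.26 and 12.34 under TCDD and 9.88, 10.36, 10.68 and 10.33 in vehicle (1.81 ± 0.24, adjusted p = 1.17e-06). Irf8 rose by 1.59 ± 0.20 (adjusted p = 2.70e-07). Both lay apart on all arrays. Irf1 changed by 0.47 ± 0.15 (adjusted p = 0.0493), and its call was lost without day 2 (0.47), day 3 (0.47) or day 4 (0.44), and without TCDD array 1 (0.50) or vehicle array 1 (0.46). Irf2, Irf3 and Irf5 were not called, with changes of 0.13, -0.08 and 0.10. Of the feedback inhibitors, Usp18, which strips the interferon-induced protein ISG15 from its targets and blocks the receptor, read 12.99, 13.08, 12.85 and 12.61 under TCDD and 8.87, 9.26, 9.75 and 8.75 in vehicle (3.72 ± 0.28, 13.2-fold, adjusted p = 2.19e-12). Socs1 changed by 1.26 ± 0.29 and lost its call without day 2 (1.18) or day 4 (1.21), and Socs3 was not called (0.27 ± 0.32).

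The 24 h change of the interferon list was the largest of the time course for nearly every member. The median change of the 22 genes was 0.45 at 8 h, 1.19 at 12 h, 2.20 at 24 h, 1.33 at 36 h and 0.66 at 48 h, with 3, 18, 22, 18 and 10 members called higher. Over all genes tested the share called higher was 2.75%, 6.07%, 4.8%, 3.49% and 4.31% at these times. In 21 members the change was largest at 24 h, the exception being Irf1 with 0.72 at 8 h. The vehicle mean at 24 h was the lowest of the 5 times in 12 members, and the TCDD mean the highest in 18. The difference in the TCDD effect between 24 h and 12 h was called in 7 members, Oasl2 (2.32 ± 0.46), Usp18 (2.32 ± 0.39), Rsad2 (2.22 ± 0.42), Oas3 (2.19 ± 0.52), Ifit3 (1.82 ± 0.37), Ifit2 (1.59 ± 0.31) and Oas1a (1.22). That between 24 h and 36 h was called in 1, Ifit3 (1.70 ± 0.37). The call against 12 h was lost without day 2 or 4 for Oasl2 (2.29 and 2.18), Usp18 (2.44 and 2.15) and Ifit2 (1.63 and 1.28), and without day 4 for Rsad2 (1.96). It was lost without day 1, 2 or 4 for Ifit3 (1.87, 1.85 and 1.82), without day 2, 3 or 4 for Oas1a (1.28, 1.25 and 1.22), and without any of days 1 to 4 for Oas3 (2.08, 2.26, 2.21 and 2.21). Ifit3, Ifit2, Oas3 and Oas1a also lost it with a common median (1.85, 1.58, 2.27 and 1.15). The Ifit3 call against 36 h was lost without any of days 1 to 4 (1.65, 1.57, 1.77 and 1.82) and with a common median (1.63).

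**Figure D2:**
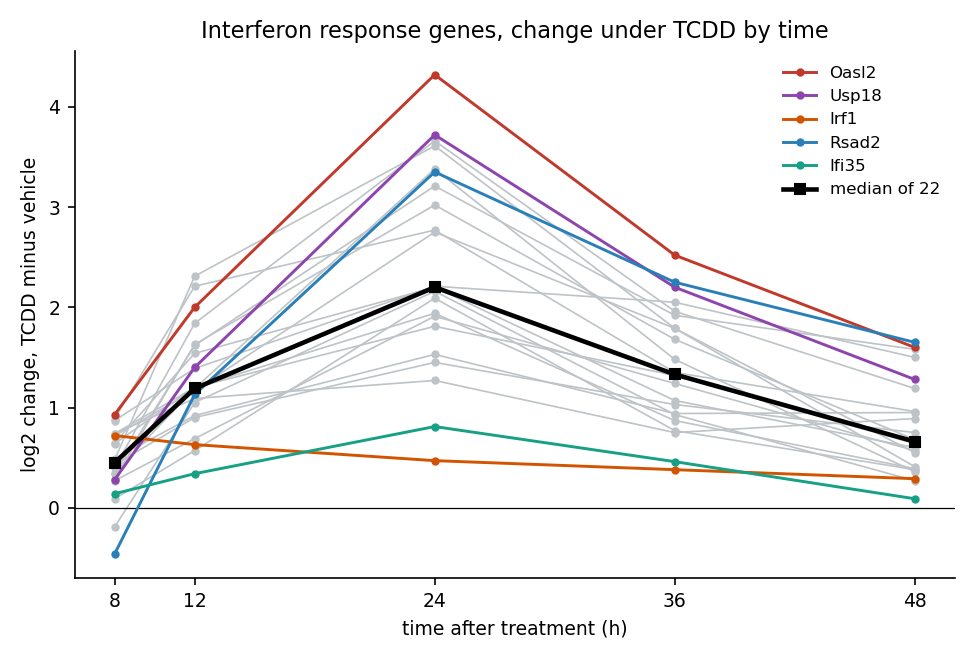
Change of the 22 interferon response genes, TCDD minus vehicle in log2(signal + 16), at 8, 12, 24, 36 and 48 h, each line a gene and the black line their median. The median rises from 0.45 at 8 h to 2.20 at 24 h and falls to 0.66 at 48 h, while Irf1 declines from 0.72.

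Several of the other largest rises are also known to respond to interferon, and others are not. Slfn1, of the Schlafen family that restrains lymphocyte growth, read 9.65, 9.88, 9.94 and 9.58 under TCDD and 5.43, 4.24, 6.38 and 5.46 in vehicle (4.39 ± 0.40, adjusted p = 3.64e-10). Its other probe set gave 0.04, so the probe sets disagree, and the mean over both was 2.22. Ido1, which degrades tryptophan, read 9.30, 9.56, 9.60 and 8.82 under TCDD and 4.67, 5.93, 6.17 and 4.66 in vehicle (3.96 ± 0.42, adjusted p = 1.21e-08). Ifi204, of the interferon-inducible p200 family, read 10.20, 10.12, 9.64 and 9.82 under TCDD and 6.60, 6.54, 6.73 and 6.5 in vehicle (3.35 ± 0.31, adjusted p = 6.34e-10). In all 3 the vehicle arrays lay far below, and for Slfn1 and Ido1 some were near the lowest possible value.

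Plet1, a surface protein best known from placenta and hair follicle, read 10.31, 10.62, 10.43 and 11.21 under TCDD and 6.16, 6.70, 6.19 and 6.81 in vehicle (4.18 ± 0.30, 18.1-fold, adjusted p = 8.51e-13). The groups lay more than 3 log2 units apart, with day 4 the highest in both. Its other probe sets gave 3.53 and 0.89, the second not called. Unlike the interferon genes, its change was already 3.82 at 8 h and 5.38 at 12 h. Ptgs2 (cyclooxygenase 2), which makes prostaglandin precursors, read 12.37, 11.24, 11.37 and 11.23 under TCDD and 8.79, 8.47, 8.87 and 8.28 in vehicle (2.95 ± 0.26, adjusted p = 2.34e-10). Day 1 stood above the other TCDD arrays.

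Gzma, the serine protease granzyme A of cytotoxic granules, read 7.79, 7.44, 8.39 and 7.92 under TCDD and 4.79, 5.2, 5.12 and 4.65 in vehicle (2.95 ± 0.31, adjusted p = 5.26e-09). The vehicle arrays were near the lowest possible value, and the change was 1.86 with a pseudocount of 64. The natural killer cell markers Ncr1, Eomes and Gzmb lay below the filter, and Prf1, Klrk1 and Nkg7 were not called (0.36, 1.01 and 0.15). The summed linear signal of these 6 markers was 457 to 502 under TCDD and 272 to 474 in vehicle, and their part in the rise of Gzma was not tested. Csf1r, the receptor of macrophage colony-stimulating factor, read 10.39, 10.54, 10.60 and 10.55 under TCDD and 8.74, 8.73, 8.98 and 8.84 in vehicle (1.69 ± 0.09, adjusted p = 9.65e-16). Its arrays were tightly grouped, and the change ran from 1.58 to 1.88 over the 5 times. Its other probe sets gave 1.00 and 0.72, the second not called. Csf1r is itself on the macrophage and monocyte list given above, whose part in these results was not tested.

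Of the genes that fell, Cd37, a B cell tetraspanin, read 8.12, 8.27, 6.21 and 6.26 under TCDD and 9.05, 9.65, 9.56 and 9.09 in vehicle (-2.13 ± 0.34, adjusted p = 1.87e-05). The TCDD arrays split, days 3 and 4 lying about 2 log2 units below days 1 and 2. Its other probe set gave 0.37, the mean over both -0.88, and the call was lost with only the 24 h arrays in the fit (adjusted p = 0.0501). Cd36, a scavenger receptor for lipids, read 11.03, 10.67, 10.63 and 11.13 under TCDD and 12.44, 12.32, 12.05 and 12.53 in vehicle (-1.47 ± 0.23, adjusted p = 1.70e-05). The groups lay apart, and its other probe sets gave -1.72 and -1.34.

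Both sialyltransferases among the falls add sialic acid to glycans at the cell surface. St6gal1, which caps N-glycans and makes the ligand of Cd22, read 9.30, 9.85, 9.91 and 10.35 under TCDD and 10.82, 11.22, 11.29 and 11.59 in vehicle (-1.38 ± 0.21, adjusted p = 1.14e-05). St8sia4, a polysialyltransferase, read 10.24, 10.16, 10.01 and 10.33 under TCDD and 11.61, 11.47, 11.21 and 11.46 in vehicle (-1.26 ± 0.18, adjusted p = 3.44e-06). The other probe set of St8sia4 gave -0.78, not called, and that of St6gal1 gave -1.30. Neither gene was called at 8 or 12 h (St6gal1 -0.18 and -0.19, St8sia4 0.33 and 0.12), and both were lower at 36 and 48 h. Cd22, the sialic acid-binding inhibitory receptor of B cells, was lower by 0.62 ± 0.20 (log2 change -0.62, adjusted p = 0.0436), but the call was lost without any of days 1 to 4 (-0.62, -0.72, -0.62 and -0.52).

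Lmo4, a LIM-domain transcriptional adaptor, read 9.62, 9.27, 9.20 and 8.87 under TCDD and 10.88, 10.71, 10.40 and 10.24 in vehicle (-1.32 ± 0.19, adjusted p = 3.55e-06). Cxcr4, the receptor that draws plasma cells to bone marrow, read 9.21, 8.89, 9.20 and 9.24 under TCDD and 10.18, 10.32, 10.13 and 10.54 in vehicle (-1.16 ± 0.15, adjusted p = 6.69e-07). Cldn4, a tight junction protein, read 6.96, 7.00, 7.23 and 7.29 under TCDD and 8.23, 8.05, 8.44 and 8.66 in vehicle (-1.22 ± 0.17, adjusted p = 1.17e-06). All 3 lay apart, and all 3 were lower at each of the 5 times. The other epithelial markers tested, Epcam (-0.27) and Krt8 (-0.05), were not called, and Krt18, Krt19 and Cdh1 lay below the filter. Their summed linear signal with Cldn4 was 317 to 442 under TCDD and 522 to 676 in vehicle. Cldn4 was the only member of that sum called, so the sum is not independent of its fall.

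The other genes among the 15 largest falls follow. Igfbp2, a binding protein of insulin-like growth factors, changed by -1.12 ± 0.19, and Wfdc21 by -1.09 ± 0.23. Zpbp2 fell by 1.54 on its main probe set, but changed by 0.25 on the other and by -0.64 in their mean, which was not called. Epas1 (HIF-2 alpha), a hypoxia-inducible factor, read 4.18, 5.73, 4.95 and 5.87 under TCDD and 6.60, 6.55, 6.60 and 6.59 in vehicle (-1.40 ± 0.34), with TCDD arrays near the lowest possible value. Its change was -2.26 with a pseudocount of 1 and -0.73 with 64, and its call was lost without day 1 (-1.07) or day 3 (-1.32). Csf3, encoding the growth factor G-CSF, changed by -1.35 ± 0.42 (-0.70 with a pseudocount of 64) and lost its call without any of days 1 to 4 (-1.51, -1.42, -1.18 and -1.27). Spaca3 changed by -1.25 ± 0.38 (0.32 on another probe set) and lost it without day 2 (-1.22), day 3 (-1.09), day 4 (-1.29) or vehicle array 1 (-1.19). P3h2, a collagen prolyl hydroxylase, changed by -1.09 ± 0.31 and lost it without day 1 (-1.11), day 2 (-1.18), day 4 (-0.83) or vehicle array 3 (-1.08). Arhgef5 changed by -1.09 ± 0.27, lost it without day 2 (-0.77), and stood at -0.68 without TCDD array 2.

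Of 13 B cell identity genes tested, 5 were called higher (38.5%, against 4.8% of all genes) and 1 lower (7.69% against 2.77%). The gene called lower was Cd22, described above, and the median change of the list was 0.32. Spib, an Ets factor of the B lineage, read 10.72, 10.88, 11.12 and 11.15 under TCDD and 10.09, 9.87, 10.28 and 9.83 in vehicle (0.95 ± 0.14, adjusted p = 9.29e-06). Ebf1, a factor that specifies B cells, read 10.12, 10.32, 10.56 and 10.47 under TCDD and 9.39, 9.18, 9.71 and 9.37 in vehicle (0.95 ± 0.16, adjusted p = 6.04e-05). Both groups lay apart in each, and Ebf1's 4 other probe sets gave 0.62 to 1.05. Blk, a kinase of the B cell receptor, rose by 0.91 ± 0.19, and Cd79b, a signalling chain of that receptor, changed by 0.32 ± 0.09, a call lost without day 1 (0.37), day 3 (0.29), day 4 (0.23) or vehicle array 2 (0.31).

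Bach2, a repressor of the plasma cell fate, read 6.59, 7.11, 7.93 and 6.85 under TCDD and 5.23, 5.09, 4.50 and 4.63 in vehicle (2.26 ± 0.39, adjusted p = 8.70e-05). The arrays lay apart, with vehicle near the lowest possible value. Its other probe sets gave 2.04 and 0.33, and the change was 0.42 with a pseudocount of 1 (adjusted p = 0.778, not called) and 1.29 with 64. The probe set standing for the gene was chosen anew at each pseudocount, so the 0.42 may belong to another probe set. Pax5, the B lineage factor that holds back Prdm1, read 5.96, 6.25, 6.37 and 5.84 under TCDD and 6.13, 6.21, 6.54 and 5.15 in vehicle, with overlapping groups (0.10 ± 0.30, adjusted p = 0.922). Bcl6 lay below the filter.

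Of the 13 tested members of the plasma cell programme, 0 were called higher and 2 lower (15.4%), against 4.8% and 2.77% of all genes tested. Their median change was -0.18. With the replicate block 4 were lower, against 6.32% of all genes tested. At an unadjusted p under 0.05 limma gave 0 higher and 4 lower, against 1118 higher and 1061 lower of all 11970 genes. Prdm1 read 10.68, 10.47, 10.52 and 10.88 under TCDD and 10.88, 10.60, 10.75 and 11.04 in vehicle. It was below vehicle in all 4 day pairs while the groups overlapped (-0.18 ± 0.14, adjusted p = 0.555, and 0.172 with the block). Xbp1, the factor of the secretory programme, read 13.49, 13.45, 13.33 and 13.34 under TCDD and 13.44, 13.41, 13.39 and 13.49 in vehicle, with no call (-0.03 ± 0.07). Irf4, which drives both activation and plasma cell fate, changed by -0.31 ± 0.11 (adjusted p = 0.0784) and Fkbp11, a secretory chaperone, by -0.30 ± 0.10 (adjusted p = 0.064). With the block both were called lower (adjusted p = 0.0457 and 0.0261).

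The 2 members called lower encode receptors. Tnfrsf13b (TACI), a receptor for the survival factors BAFF and APRIL, read 12.94, 13, 13.04 and 13.14 under TCDD and 13.34, 13.38, 13.38 and 13.54 in vehicle (-0.38 ± 0.08, adjusted p = 0.00148). The groups lay apart by less than 1 log2 unit, and the call was lost with a common median (-0.43). Il6ra, a chain of the interleukin 6 receptor, read 6.80, 7.12, 7.07 and 7.35 under TCDD and 7.73, 7.71, 7.86 and 8.00 in vehicle (-0.74 ± 0.18, adjusted p = 0.00613), and lost its call without day 1 (-0.68) or day 2 (-0.79). The secretory products showed no call. Ighm, the heavy chain of IgM, changed by -0.26 ± 0.27 and Jchain, which joins IgM into pentamers, by 0.25 ± 0.33. The 10 other probe sets of Ighm ran from -0.78 ± 0.23 (limma, adjusted p = 0.0632) to 0.08, none called. Sdc1 (-0.26), Mzb1 (0.00), Pou2af1 (0.10), Ell2 (-0.03) and Creb3l2 (0.05) were not called either. Il6 changed by -0.37 ± 0.30 (adjusted p = 0.595), and Tnfrsf17, Slamf7 and Cd93 lay below the filter.

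Receptor signalling genes of B cells showed single changes. Of 12 B cell receptor signalling genes 1 was called (2 with the replicate block), Ptpn6 (SHP-1), a phosphatase that dampens the receptor, with 12.73, 12.83, 12.98 and 12.88 under TCDD and 11.44, 11.58, 11.85 and 11.75 in vehicle (1.2 ± 0.14, adjusted p = 1.18e-07). Of 16 Toll-like receptor signalling genes 4 were called higher and 0 lower (5 and 1 with the block). Higher calls made 8.33% of the B cell receptor list and 25% of this one, against 4.8% of all genes tested. Tlr7, the endosomal sensor of single-stranded RNA, read 9.52, 9.56, 9.77 and 9.81 under TCDD and 8.20, 7.94, 8.28 and 8.14 in vehicle (1.53 ± 0.13, adjusted p = 8.44e-11). The groups were more than 1 log2 unit apart. Irak3, an inhibitor of Toll-like receptor signalling, rose by 1.27 ± 0.14. Irak2, an adaptor kinase, changed by 0.61 ± 0.16 and lost its call without day 2 (0.52) or TCDD arrays 3 (0.55) or 4 (0.56), and Ly86 (MD-1) changed by 0.44 ± 0.11 and lost it without day 1 (0.43) or day 2 (0.45).

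Of 26 NF-kB and inflammatory genes, 8 were called higher and 1 lower (2 lower with the replicate block), with a median change of 0.09. The calls without the block made 30.8% and 3.85% of the list, against 4.8% and 2.77% of all genes tested. Cxcl10, a chemokine that is also on the interferon list, read 10.89, 11.04, 10.72 and 10.23 under TCDD and 8.13, 8.48, 9.27 and 8.18 in vehicle (2.21 ± 0.30, adjusted p = 1.33e-06). Nfkbiz, a nuclear IkB protein, rose by 0.82 ± 0.15, and Icam1, an adhesion molecule, by 0.49 ± 0.08. Bcl3, an atypical IkB protein, changed by -0.46 ± 0.11. The calls of all 3 were lost with a common median (0.79, 0.47 and -0.48). Zc3h12a, a ribonuclease that trims cytokine transcripts, changed by 0.60 ± 0.18 and lost its call without any of days 1 to 4 (0.62, 0.65, 0.60 and 0.51). Ltb, a lymphotoxin chain, changed by 1.12 ± 0.28 and lost its call without day 4 (1.03). The chemokine Ccl3 changed by 0.98 ± 0.31 and lost it without day 1 (0.78), day 2 (0.99), day 4 (1.05) or TCDD array 3 (0.95).

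Cytokine genes moved both ways. Of 22 tested, 3 were called higher (Ifng, Csf1r and Il10) and 1 lower (Il4), and with the replicate block 5 higher and 2 lower. Without the block that was 13.6% and 4.55%, against 4.8% and 2.77% of all genes tested. Il10, an anti-inflammatory cytokine, read 14.74, 14.69, 14.65 and 14.79 under TCDD and 14.15, 14.13, 14.40 and 14.41 in vehicle (0.45 ± 0.09, adjusted p = 0.000419), and was not called with a common median (0.37) or on the values as deposited (0.39). Il4, a cytokine that promotes class switching, read 8.24, 8.16, 8.24 and 8.08 under TCDD and 9, 8.92, 9.28 and 9.58 in vehicle (-1.02 ± 0.27, adjusted p = 0.0123). Its groups lay apart, and the call was lost without day 2 (-1.10), day 3 (-1.01) or day 4 (-0.85).

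Of 14 co-stimulatory and inhibitory receptors, 6 were called higher (42.9%, against 4.8% of all genes tested) and 0 lower, with a median change of 0.42. Ctla4, which competes with Cd28 for its ligands, read 11.93, 11.86, 12.47 and 12.23 under TCDD and 10.77, 10.65, 10.53 and 10.44 in vehicle (1.53 ± 0.21, adjusted p = 2.06e-06). Cd274 (PD-L1), the ligand of the inhibitory receptor PD-1, read 10.25, 9.80, 9.95 and 9.91 under TCDD and 8.77, 8.59, 8.92 and 8.63 in vehicle (1.25 ± 0.19, adjusted p = 6.74e-06). Both lay apart, as did Pdcd1 (PD-1 itself), which rose by 0.71 ± 0.12. Cd40, the receptor for T cell help, changed by 0.43 ± 0.09, a call lost without day 4 (0.41), and Icos by 0.69 ± 0.21, lost without day 3 (0.54), day 4 (0.63) or vehicle array 1 (0.70). Lag3, which binds MHC class II, changed by 0.82 ± 0.21, lost its call without day 2 (0.60) or day 4 (0.80), and stood at 0.54 without vehicle array 2.

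Antigen presentation genes were read by class. Of 12 MHC class I genes, 5 were called higher (41.7%, against 4.8% of all genes tested) and 0 lower, with a median change of 0.21. Tapbp (tapasin), which loads peptides, rose by 0.64 ± 0.13, Nlrc5, the class I transactivator, by 0.56 ± 0.11 and B2m, the light chain, by 0.30 ± 0.08. The call of B2m was lost without day 1 (0.28), day 2 (0.26) or day 4 (0.32). The call of Tapbp was lost in the mean of probe sets, and that of Nlrc5 with a common median. Tap1, a peptide transporter, changed by 0.44 ± 0.12 and lost its call without day 2 (0.42), day 4 (0.41) or vehicle array 1 (0.42). In the mean of probe sets Tap1 stood at 0.10 and was not called, its other probe sets reading -0.26, -0.09 and 0.30. Psmb10, an immunoproteasome subunit, changed by 0.40 ± 0.13, a call lost without days 2, 3 or 4 (0.41 each), TCDD array 1 (0.44) or vehicle array 1 (0.33). Of 11 MHC class II genes limma called 0, with 2 higher and 0 lower at an unadjusted p under 0.05, 1 higher with the replicate block, and a median change of 0.04. Over all 11970 genes, 1118 were higher and 1061 lower at that p, and 7.26% were higher with the block. The difference between the classes was not tested. Of 18 homing and adhesion genes, Cd44 was called higher (0.51 ± 0.14) and Cxcr4 and Ackr3 lower. These shares were 5.56% and 11.1%, against 4.8% and 2.77% of all genes tested. With the replicate block 2 were higher and 3 lower. Cd44 lost its call without day 1 (0.45), day 3 (0.57), day 4 (0.54) or vehicle array 2 (0.40), and in the mean of probe sets (0.30). Its other probe sets gave 0.56, 0.31 and -0.19. Ackr3, a decoy receptor for the ligand of Cxcr4, changed by -0.61 ± 0.18 and lost it without day 1 (-0.51), day 2 (-0.59), day 4 (-0.62) or TCDD array 3 (-0.60).

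Few cell cycle genes were called. Of 24 G2/M and mitosis genes 3 were called lower (12.5%, against 2.77% of all genes tested), with a median change of -0.15. At an unadjusted p under 0.05 limma gave 0 of the 24 higher and 7 lower. Over all 11970 genes tested it gave 1118 higher and 1061 lower. All 3 calls were lost with a common median. Mki67, the proliferation marker, changed by -0.40 ± 0.12 (lost without days 1, 2, 3 and 4 in turn: -0.36, -0.42, -0.41 and -0.41), the mitotic kinase Aurka by -0.37 ± 0.09 (lost without day 2 or 4: -0.37 each) and its activator Tpx2 by -0.31 ± 0.08 (lost without day 1 or 4: -0.28 each). In the mean of probe sets neither was called, Aurka at -0.10 (its other probe set at 0.17) and Tpx2 at -0.22. Of 25 G1/S and DNA replication genes limma called 0, with 0 higher and 1 lower at an unadjusted p under 0.05. The same test called 0 of 9 CDK inhibitors and D cyclins, with 0 higher and 2 lower unadjusted, and 1 higher and 1 lower with the replicate block. Of 19 MYC and ribosome biogenesis genes 2 were called lower, Pes1 (-0.35 ± 0.08, lost without day 1 at -0.28) and the RNA helicase Ddx21 (-0.23 ± 0.07, lost without any of days 1 to 4: -0.17, -0.21, -0.28 and -0.24). In the mean of probe sets neither was called, Pes1 at -0.16 (its other probe set at 0.03) and Ddx21 at -0.18. Lower calls made 10.5% of these 19 genes, against 2.77% of all genes tested. With the replicate block 4 of the 19 were lower, against 6.32% of all genes. At an unadjusted p under 0.05 limma gave 0 higher and 5 lower.

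Stress and secretory lists stayed close to the background over all genes tested, 4.8% called higher and 2.77% lower. Of 31 unfolded protein response and secretory genes, Edem1, which extracts misfolded glycoproteins, was called higher (0.39 ± 0.08, not with a common median), and Spcs3, a signal peptidase subunit, lower (-0.22 ± 0.06, lost without day 1 or 2, both -0.22, and day 4, -0.23). Of 18 integrated stress response genes limma called 0, with 1 higher and 0 lower at an unadjusted p under 0.05, and likewise with the replicate block. Over all 11970 genes, 1118 were higher and 1061 lower at that p, and 7.26% were higher with the block. With the block 2 p53 targets were higher. Of 13 NRF2 and antioxidant genes, Nqo1 was higher and Gclm, a subunit of the glutathione-making enzyme, lower, with 9.76, 9.80, 9.75 and 9.64 under TCDD and 10.42, 10.50, 10.40 and 10.25 in vehicle (-0.65 ± 0.11, adjusted p = 6.04e-05). Of 14 p53 targets Sesn1 was higher (0.75 ± 0.14), and Phlda3 changed by -0.49 ± 0.14, a call lost without day 2 (-0.50), day 3 (-0.43), day 4 (-0.40) or vehicle array 1 (-0.47).

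Of 13 BCL2 family genes 1 was called, the pro-apoptotic Bmf, with 9.12, 9.10, 8.85 and 9.08 under TCDD and 7.94, 7.84, 7.95 and 8.15 in vehicle (1.07 ± 0.19, adjusted p = 0.000154). Its groups lay apart, and in the mean of its probe sets the change was 0.63 and not called. Of 13 TGF-beta genes the receptor Tgfbr2 was called higher (0.46 ± 0.13, lost without day 2 at 0.45, day 3 at 0.43 or TCDD array 4 at 0.41). Higher calls made 7.69% of both lists and 11.8% of the glycolysis and hypoxia list below, against 4.8% of all genes tested. Of 17 glycolysis and hypoxia genes, Pfkp, a phosphofructokinase, rose by 0.66 ± 0.10 (not called with a common median) and Hif1a changed by 0.39 ± 0.09 (lost without day 2 at 0.36). In the mean of probe sets Tgfbr2 stood at 0.30 and Hif1a at 0.16, neither called, and 1 other probe set of each was below 0 (-0.11 and -0.29). Of 14 cholesterol synthesis genes 2 were called lower, Dhcr7 (-0.50 ± 0.14, lost without day 1 at -0.48, day 3 at -0.42, day 4 at -0.53 or vehicle array 2 at -0.46) and Idi1 (-0.43 ± 0.14, lost without day 2 at -0.47, day 3 at -0.38, day 4 at -0.41 or vehicle array 1 at -0.38). Lower calls made 14.3% of the cholesterol list, against 2.77% of all genes tested, and its median change was -0.24. With the replicate block 1 was higher and 5 lower, where 7.26% and 6.32% of all genes tested were called. Of 13 immediate early factors limma called 0, with 1 higher and 1 lower at an unadjusted p under 0.05, and 1 higher and 2 lower with the replicate block. At that p 1118 of all 11970 genes were higher and 1061 lower. With the replicate block 1 BCL2 family gene and 2 glycolysis and hypoxia genes were also lower.

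**Figure D3:**
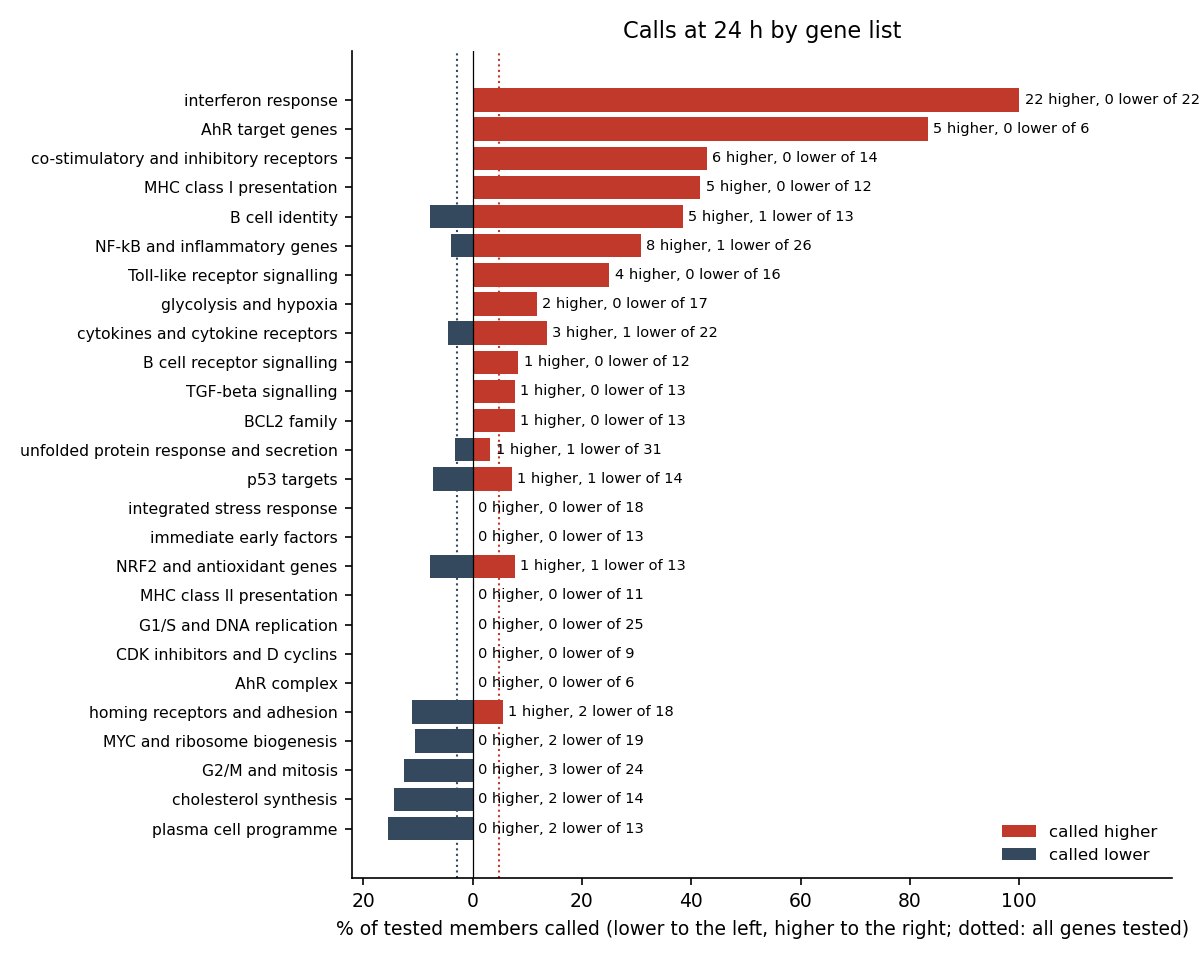
Share of each list's tested members called higher (red, to the right) and lower (blue, to the left) at 24 h, with the numbers beside the bars and dotted lines at the shares over all genes tested, 4.8% and 2.77%. The interferon response list stands at 22 of 22, and the AhR targets at 5 of 6.

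The genes called at 24 h were next set beside those at the other times, which were measured on other arrays. Of the 575 called higher at 24 h, 330 were also called higher at 12 h (57.4% of the 24 h genes and 45.4% of those at 12 h, where 6.07% of all genes were called higher) and 292 at 36 h (50.8% and 69.9%, with 3.49% called higher). Of the 332 called lower, 93 were called lower at 12 h (28% and 24.7%, with 3.14% called lower) and 90 at 36 h (27.1% and 31.4%, with 2.4% called lower). A gene called at 1 time and not at another is not shown to differ between them, so the difference in the TCDD effect was tested.

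The effect at 24 h differed from that at 12 h in 70 genes (0.585%), 42 with a higher change at 24 h (0.351%) and 28 with a lower one (0.234%). With the replicate block 270 differed. Without day 2, 3 or 4 the count was 8, 23 or 16. Besides the interferon genes, Tlr7 had a change of 0.31 at 12 h and 1.53 at 24 h (difference 1.22 ± 0.19, adjusted p = 0.000528). Its vehicle mean fell from 9.33 at 8 h to 8.14 at 24 h, while its TCDD mean stayed between 9.11 and 9.66. Phf11d changed by 0.47 at 12 h and 1.76 at 24 h (difference 1.29 ± 0.20), and Cep57l1 by 0.27 and 1.54 (difference 1.28 ± 0.21). Spib changed by 0.08 and 0.95 (difference 0.87 ± 0.20), and Ccl3 by -0.79 and 0.98 (difference 1.77 ± 0.44).

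Other genes had a smaller or lower change at 24 h than at 12 h. Xbp1 was higher under TCDD by 0.59 at 12 h and changed by -0.03 at 24 h (difference -0.62 ± 0.09, adjusted p = 0.000528). Its vehicle mean rose from 12.44 at 12 h to 13.43 at 24 h and 13.88 at 48 h, and its TCDD mean was 13.02, 13.40 and 13.49 at those times, so the curves met at 24 h and had crossed by 36 h (-0.27). Ctla4 changed by 2.77 at 12 h and 1.53 at 24 h (difference -1.24 ± 0.30), its vehicle mean rising from 8.05 to 10.60. St8sia4 changed by 0.12 and -1.26 (difference -1.38 ± 0.25), its vehicle mean rising from 10.61 to 11.44 and its TCDD mean falling from 10.73 to 10.18. Cradd, an adaptor in death receptor signalling (1.18 to 0.39), the glycosyltransferase Mgat4a (0.78 to -0.04), Cytip, a regulator of lymphocyte adhesion (0.84 to 0.07), and Hmgb3 (0.18 to -0.45) moved likewise. Car12, a carbonic anhydrase, went from -0.84 to -0.19 (difference 0.65 ± 0.12), and Spcs3 from 0.11 to -0.22 (difference -0.33 ± 0.08). With the replicate block all 20 of these named differences were called. Without each day in turn, 6 stayed called throughout (Xbp1, Tlr7, Phf11d, Cradd, Hmgb3 and Mgat4a), but all 6 lost the call with a common median (-0.68, 1.19, 1.26, -0.84, -0.68 and -0.89), and Xbp1 also in the mean of probe sets (-0.42). No named difference from 12 h kept its call under all alternatives. Cep57l1 (1.32) and Cytip (-0.65) lost it without day 2, St8sia4 without day 2 or 4 (-1.33 and -1.40), Ctla4 without day 1, 2 or 4 (-1.25, -1.13 and -1.29), Spib without day 2, 3 or 4 (0.90, 0.80 and 0.72), and Car12 without the same days (0.59, 0.66 and 0.62). Ccl3 (1.63, 1.87, 1.76 and 1.83) and Spcs3 (-0.33, -0.31, -0.33 and -0.34) lost it without any of days 1 to 4.

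Against 36 h, 16 genes differed (0.134%), 12 with a higher (0.1%) and 4 with a lower (0.0334%) change at 24 h. With the replicate block 216 differed, and leaving out any day left 0 to 1. Acod1, which makes itaconate, read 9.31, 9.06, 9.55 and 9.42 under TCDD and 6.55, 6.06, 6.11 and 6.98 in vehicle at 24 h (2.91 ± 0.32, adjusted p = 1.82e-08). The groups were more than 2 log2 units apart. By 36 h its vehicle mean had risen from 6.42 to 9.40 while its TCDD mean went from 9.34 to 9.69, and the change was 0.29 (difference 2.63 ± 0.45, adjusted p = 0.00817). The call of that difference was lost without day 2 (2.74), day 3 (2.30) or day 4 (2.72).

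Fcgr4, an activating receptor for IgG, changed by 0.73 at 24 h and 0.04 at 36 h, Fbxl20 by 0.69 and 0.08, Phf11d by 1.76 and 0.84, Nqo2 by 0.41 and -0.26, and Gmppa by 0.36 and -0.10. In the other direction Tnni2 changed by 0.09 and 1.95 (difference -1.86 ± 0.37), Xxylt1 by -0.61 and 0.18, Exosc2 by -0.35 and 0.21, and Tmem17 by -0.53 and 0.46. At 24 h the call of Tmem17 was lost without any of days 1 to 4 (-0.52, -0.53, -0.55 and -0.51). All 11 named differences from 36 h were called with the replicate block, and 0 of them remained called without each day in turn. In the mean of probe sets the difference was 0.06 for Gmppa, -0.06 for Exosc2, -0.14 for Tmem17, -0.70 for Tnni2 and 0.31 for Nqo2, none called. The 24 h change itself was then 0.02 for Gmppa, -0.20 for Exosc2 and -0.07 for Tmem17, none called.

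**Figure D4:**
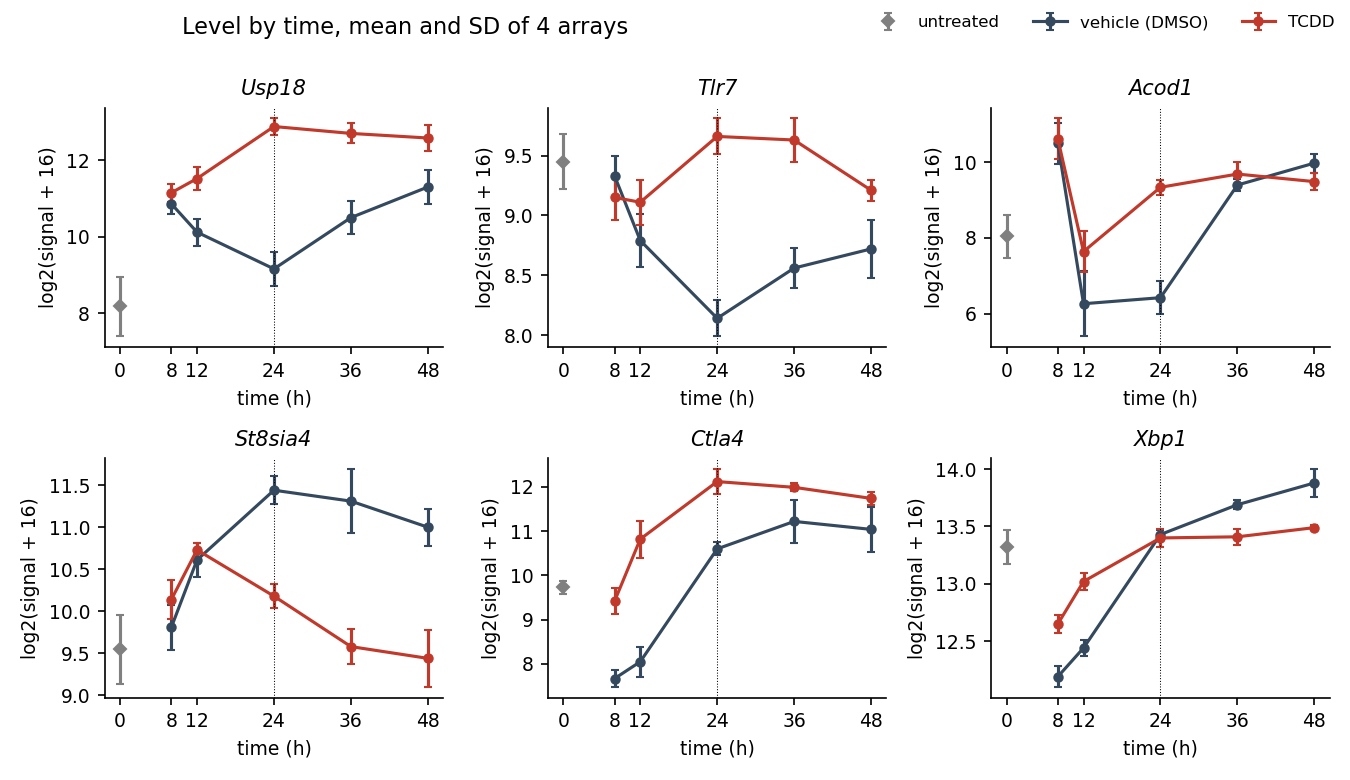
Mean level of 6 genes by time, as log2(signal + 16), in untreated cells (grey), vehicle cells (blue) and TCDD cells (red), with error bars of 1 SD over 4 arrays and a dotted line at 24 h. Usp18 and Tlr7 have their lowest vehicle level of the 5 times at 24 h (9.16 and 8.14), Acod1 is at 6.42 in vehicle against 9.34 under TCDD, and the curves of Xbp1 meet at 24 h (13.43 and 13.40).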

How the data were processed

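Each sample was hybridised to its own Affymetrix Mouse 430 2.0 array. The deposited values are signal intensity on a linear scale, produced with GCOS 1.0, per the submitters' processing notes. The sources used here give no further steps. The medians of the arrays on the scale of log2(value + 16) differed by up to 0.914, more than the 0.2 allowed, so values were quantile normalized before log2(value + 16) was taken. Control probe sets (64) were left out. Of the others, 34945 had 1 gene symbol, 932 several and 9160 none in the annotation used. The probe set with the highest mean stood for each gene, and near-identical relatives within families (Oas, Ifit, Schlafen, p200) may share signal. Genes whose highest group mean exceeded the median of all values (6.21) were tested, 11970 of 18193.

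limma 3.58.1 in R 4.3.3 fitted 11 group means over 44 arrays, moderated the variances by empirical Bayes and adjusted two-sided p-values by Benjamini-Hochberg (threshold 0.05). Scripts were tested on simulated data. Same-numbered arrays share a day by the series' design text, so the numbers pair them: at 24 h their deviations correlated with r = 0.315, 0.196, 0.182 and 0.234, against -0.229 to 0.147 for unlike numbers. The day as a replicate block was an alternative, beside a random block, only the arrays compared (with and without block), no or a stricter filter, values as deposited, a common median, pseudocounts of 1 and 64, all or averaged probe sets, an intensity trend and leaving out days or arrays. Leaving out 4 arrays standing apart, none at 24 h, was added after seeing the data.

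The comparison, lists and tests were chosen with earlier results of these data known. Named genes are the 15 largest rises and falls among called genes with all 4 day pairs alike, every tested AhR target, AhR complex and plasma cell gene, Pax5, Bach2, Bcl6, Il6, Ctla4 and Plet1, up to 4 called members of other lists, and 5 per direction for differences between times, with non-name symbols skipped. The remaining list members, the interferon pathway genes, differences between times of other named genes, marker genes and the interferon response motif were named after their values were seen. Promoters come from RefSeq (GRCm38.p6, 27025 genes, 250 bases before the start). Figures used matplotlib 3.10.9 in Python 3.11.15.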

Additional observations from a re-analysis of the deposited data

Results flagged for a closer look

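In 14 of 228 groups of 4 arrays (114 named genes, TCDD and vehicle at 24 h) 1 array lay far from the other 3 by Dixon's test. Chance flags about 1 in 20 groups. The TCDD arrays concerned were, on day 1, Ptgs2 (12.37), Aurka (11.52), Pes1 (11.27) and Ddx21 (11.73); on day 2, Cxcr4 (8.89), Arhgef5 (4.47), Ackr3 (7.48) and Phf11d (12.85); on day 3, Hsp90aa1 (14.64) and Bmf (8.85); and on day 4, Ahrr (7.83), Sesn1 (10.21) and Pfkp (13.10). The vehicle array was that of Ltb on day 3 (8.15).

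The TCDD effect of 20 named genes differed between 24 h and 12 h in limma's interaction contrast. It was higher at 24 h for Oasl2 (2.32), Usp18 (2.32), Rsad2 (2.22), Oas3 (2.19), Ifit3 (1.82), Ccl3 (1.77), Ifit2 (1.59), Phf11d (1.29), Cep57l1 (1.28), Tlr7 (1.22), Spib (0.87) and Car12 (0.65). It was lower at 24 h for St8sia4 (-1.38), Ctla4 (-1.24), Mgat4a (-0.82), Cradd (-0.80), Cytip (-0.77), Hmgb3 (-0.62), Xbp1 (-0.62) and Spcs3 (-0.33). For 11 named genes the effect differed between 24 h and 36 h. It was higher at 24 h for Acod1 (2.63), Ifit3 (1.70), Phf11d (0.92), Fcgr4 (0.70), Nqo2 (0.67), Fbxl20 (0.61) and Gmppa (0.46), and lower for Tnni2 (-1.86), Tmem17 (-0.98), Xxylt1 (-0.79) and Exosc2 (-0.57).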

How the results depend on the processing

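The 907 calls at 24 h became 1625 with the replicate block, 1497 with a random block, 348 with a common median and 483 to 692 without 1 day (638 to 813 without 1 array). The 70 differences from 12 h became 270, 212, 5 and 8 to 53 in these settings, 40 with only the arrays compared and 180 with these and the replicate block. The 16 differences from 36 h became 216, 131, 1 and 0 to 1, 25 and 306 with only those arrays, 2 without a filter, 27 with a stricter one, 2 with all probe sets, 1 with their mean and 48 without the 4 arrays standing apart. The other alternatives gave counts within 1.5 times of these. No named gene reversed a call. Of 90 named genes called, 45 stayed called under every alternative that tested them, 29 lost the call without at least 1 day or array and 16 only under other alternatives. A common median ended 30 of them, the replicate block 0. Of 24 not called, 4 gained a call in some setting (Ncoa1, Ncoa2, Irf4 and Fkbp11). The causes were not tested. Precision is limited by 4 arrays per group, and Gzma, Epas1, Csf3, Spaca3, P3h2, Arhgef5 and Bach2 moved by over 1.5 times with the pseudocount. The probe set standing for each gene was chosen anew at each pseudocount.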
